A study of Mus musculus with 12 samples.

Results

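The comparison asked of each gene whether the effect of a misfolding collagen X depended on the transcription factor XBP1. All 12 arrays of the series took part, 3 for each of 4 genotypes of 2-week-old mice on a mixed background strain. Wildtype (Wt) mice carried neither change. ColXN617K mice carried an asparagine-to-lysine substitution in Col10a1, the collagen of hypertrophic cartilage. Xbp1CartΔEx2 mice lost exon 2 of Xbp1 through a Cre recombinase active in cells that express Col2a1, so XBP1 was lost from cartilage cells and not from other cells of the tissue. C/X mice carried both. From each mouse, the hypertrophic zone was cut with a scalpel from 1 growth plate, that of the proximal tibia, its RNA was amplified linearly in 2 rounds, and each sample was hybridised to a single-colour Illumina mouse whole-genome array. In such bulk tissue, fewer cells of a type and less RNA per cell cannot be told apart.

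Cells that fold too little of their secreted protein activate the unfolded protein response through 3 sensors in the endoplasmic reticulum (ER) membrane. IRE1 splices the Xbp1 mRNA, and the resulting factor activates genes for protein entry, folding, transport and degradation in the ER. ATF6 activates chaperone genes after it is cleaved in the Golgi, and PERK lowers general translation while favouring ATF4, which in turn activates Ddit3 (CHOP) and genes of amino acid supply. Hypertrophic chondrocytes secrete large amounts of collagen X before the cartilage is replaced by bone, and mutations that misfold it cause a form of dwarfism.

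For each probe the interaction was the effect of the collagen X mutation without XBP1 (C/X minus Xbp1CartΔEx2) minus its effect with XBP1 (ColXN617K minus Wt), on normalized log2 signals. A value of 1 means that the first fold change was 2 times the second. A higher interaction can come from a larger rise or a smaller fall without XBP1, and a lower interaction from the reverse. Of 45281 probes, 12023 were above background (a detection score over 0.95) on at least 3 arrays and were tested, 9866 of them with 1 gene symbol, for 7642 genes. An interaction was called at an adjusted p of 0.01 or less and a size of at least 1 on the log2 scale.

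The 12 arrays held between 17.1 and 28.4% of probes above background. The share was 17.3 to 17.7% in Wt and 19.6 to 23.1% in Xbp1CartΔEx2. It was 26.1, 28.4 and 17.1% in ColXN617K and 23.2, 24.4 and 17.2% in C/X. All genotypes carried the markers of cartilage, with summed unlogged signals of 21 cartilage matrix genes from 107000 to 170000, and those of 15 hypertrophic chondrocyte genes were 112000 to 136000 in Wt and Xbp1CartΔEx2 and 56300 to 67600 in both collagen X mutants. ColXN617K array 3 and C/X array 3 stood apart from the other arrays of their genotypes, with lowest correlations of 0.867 and 0.915. The labels gave no sex, and the arrays were unequal in Xist, the RNA that silences an X chromosome in females. The brightest Xist probe read 9.42, 6.80 and 9.41 in Wt, 6.81, 6.31 and 6.65 in ColXN617K, 6.76, 6.84 and 6.73 in Xbp1CartΔEx2 and 11.65, 6.61 and 10.21 in C/X. It was above background on 4 arrays, 2 of Wt and 2 of C/X. Eif2s3y, a gene of the Y chromosome, ran opposite to it, at 7.01, 8.55 and 6.93 in Wt, 10.21, 10.67 and 9.05 in ColXN617K, 8.25, 7.92 and 8.37 in Xbp1CartΔEx2 and 6.67, 9.06 and 6.65 in C/X. Its interaction was -3.20 ± 0.90 (adjusted p = 0.0506), and that of Xist 4.66 ± 1.42 (adjusted p = 0.0668). These are the genotypes that enter the interaction with the same sign, so any effect that goes with these arrays enters the interaction as well.

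Of the 12023 probes, 205 had a called interaction (1.71%), 115 higher (0.957%) and 90 lower (0.749%). At an unadjusted p under 0.05 there were 2901. The interaction is the difference of 2 differences, and its median standard error was 0.389 against 0.275 for a single effect. The mutation itself changed 1740 probes with XBP1 (14.5%) and 1643 without it (13.7%), while loss of XBP1 changed 212 probes in mice with normal collagen X (1.76%) and 633 in mutants (5.26%). The called probes covered 157 genes, 84 higher and 73 lower. With 1 probe per gene, the brightest, 113 of 7642 genes were called (1.48%), 53 higher (0.694%) and 60 lower (0.785%).

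The number of calls rested on single arrays and on the arrays with Xist. Without ColXN617K array 3 there were 388 higher and 432 lower calls, and all 205 remained among them. Without any other array in turn the counts fell to between 29 and 71 higher and between 24 and 63 lower. Of the 205 probes, 46 were called in all 12 of these fits and all 205 kept their sign in each. These fits share most arrays with the one that picked the probes, which favours the same sign. With Xist above background or not as a block, no probe was called by limma, and 1626 had an unadjusted p under 0.05. In that fit all 205 kept their sign at an unadjusted p under 0.05, their median was 2.16 for the higher and -2.04 for the lower probes, against 2.12 and -2.14 without the block, and 22 passed an adjusted p of 0.05. The 205 were picked on arrays that this fit reuses, which favours kept signs and low p-values. The median standard error rose to 0.543 with the block. Of the Wt and C/X arrays, only Wt array 2 and C/X array 2 were without Xist. In the fit with the block, the size of the interaction therefore rested on these arrays for Wt and C/X. It was the same as without the 4 arrays with Xist, so the 2 settings are not separate checks of size. Without the 4 arrays with Xist, no higher and 1 lower call was made, outside the 205, by limma with 4 residual degrees of freedom, and 1390 probes had an unadjusted p under 0.05. When array medians were equalised and no quantile step was used, no higher and 1 lower interaction was called by limma, 2391 had an unadjusted p under 0.05, and all 205 kept their sign. The part of sex in the calls was not tested, since the labels do not give it.

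**Figure D1:**
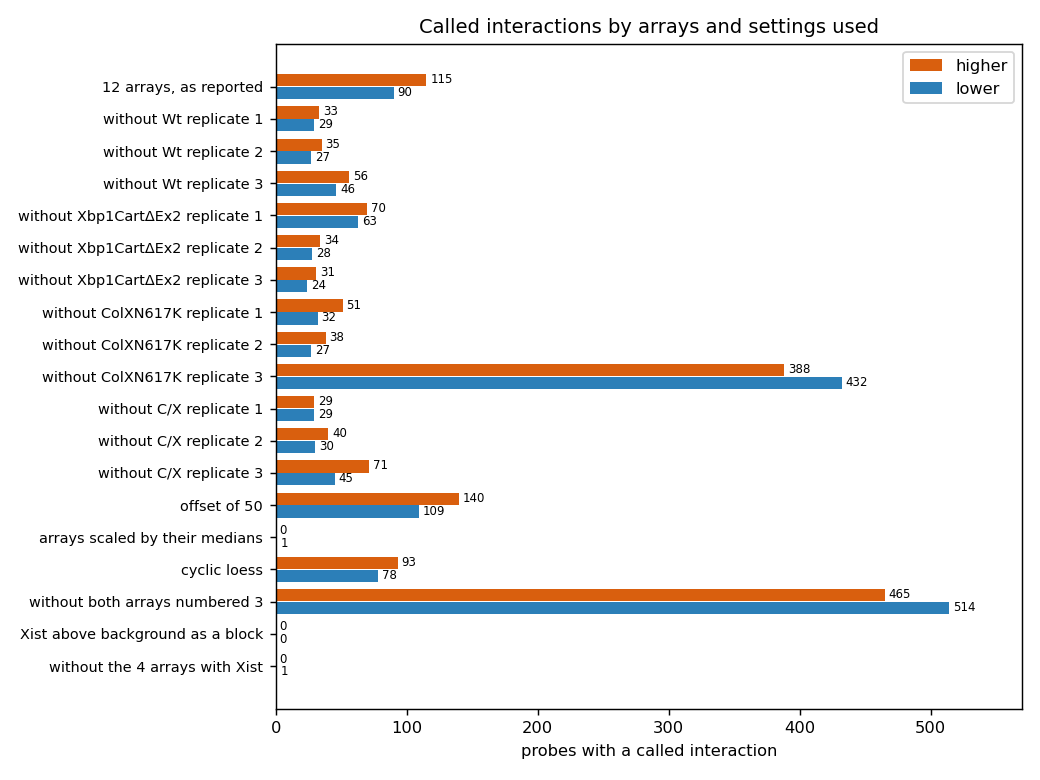
Number of probes with a called interaction (horizontal axis, higher in orange and lower in blue) for all 12 arrays and for each other set of arrays or setting (vertical axis). The 115 higher and 90 lower calls of all 12 arrays became 388 and 432 without ColXN617K replicate 3 and 0 and 0 with Xist as a block.

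**Figure D2:**
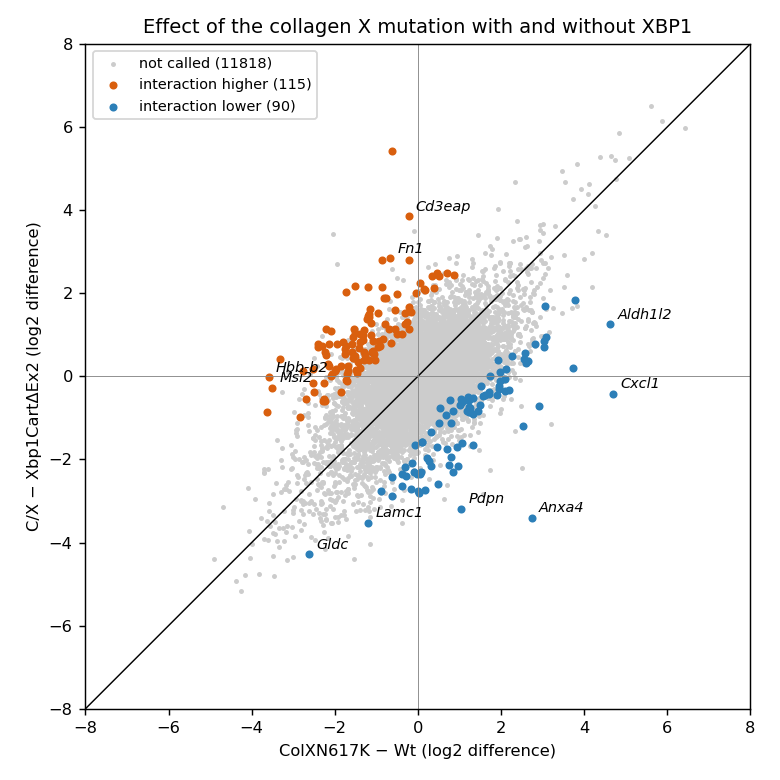
Log2 difference made by the collagen X mutation with XBP1 (horizontal axis, ColXN617K minus Wt) and without it (vertical axis, C/X minus Xbp1CartΔEx2), 1 point per tested probe. Points on the diagonal have no interaction; the 115 higher (orange) and 90 lower (blue) calls lie away from it, and 10 genes are named.

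The called probes were sorted by where the mutation moved them at least 2-fold. In 106 probes this was so only with XBP1, 63 of which lay lower in ColXN617K than in Wt and 43 higher. In 65 probes it was so only without XBP1, 32 with a higher and 33 with a lower interaction. In 20 probes the mutation moved the signal at least 2-fold in opposite directions, 15 with a higher and 5 with a lower interaction. Only 5 probes were moved at least 2-fold in the same direction in both settings, 3 of them less without XBP1 and 2 more, and 9 were moved 2-fold in neither. These classes describe sizes and not tests of each effect: 125 of the 205 passed the test for the mutation with XBP1 and 86 without it, and 4 passed it for no single effect. In 151 probes the 2 effects of the mutation had opposite signs. Picking probes by a large difference between the 2 effects favours opposite signs and leaves few moved alike, so these counts partly reflect the selection.

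**Figure D3:**
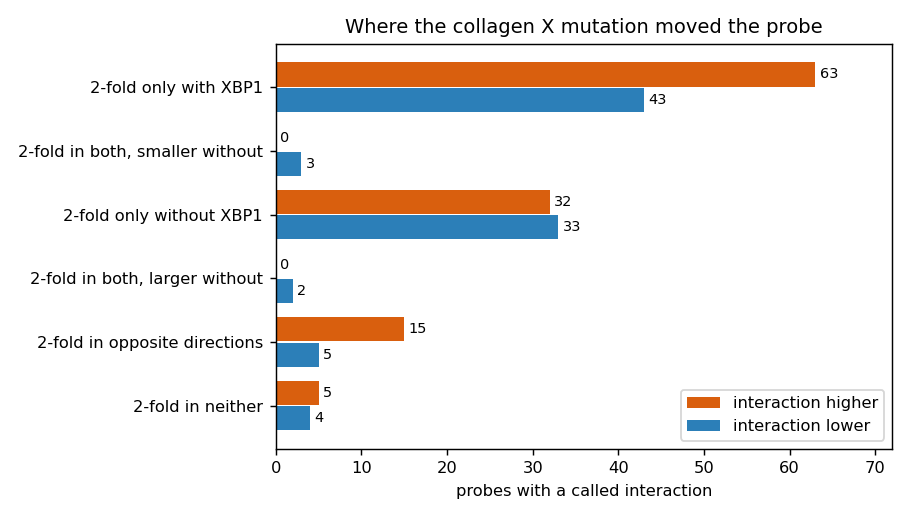
Number of called probes (horizontal axis) by whether the mutation moved the signal at least 2-fold with XBP1, without it, or both (vertical axis), for higher (orange) and lower (blue) interactions. The largest class is the 63 higher and 43 lower probes moved 2-fold only with XBP1.

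The genotype whose mean lay farthest from the mean of the other 3 was ColXN617K for 100 probes, C/X for 43, Xbp1CartΔEx2 for 41 and Wt for 21, a description added after the values were seen. The 115 higher probes had median signals of 9.58 in Wt, 8.16 in ColXN617K, 8.78 in Xbp1CartΔEx2 and 9.82 in C/X. The 90 lower probes had medians of 7.11 in Wt, 8.85 in ColXN617K, 8.91 in Xbp1CartΔEx2 and 7.52 in C/X. By these medians both single mutants lay on 1 side of Wt and C/X, a shape that the sign of the interaction favours by construction.

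The floor of the scale bore on the 2 directions unequally. A genotype was taken as at the floor where the probe was above background on none of its 3 arrays. The lowest signal above background was 7.62 to 7.68 in Wt and 6.98, 6.90 and 7.70 on the ColXN617K arrays. A signal at the floor in Wt could therefore be above background in ColXN617K. Among the higher probes, 98 had no genotype at the floor, for 7 the floor made the size a lower limit, and for 10 it left the size open. Among the lower probes these numbers were 39, 34 and 17. Of the genes named below, the values of Anxa4, Cxcl1, Mak16, Aldh1l2, Spred1, Glrx, Nop14, Mcm6, Cd3eap, Eif5a and Chmp2a are lower limits in size, and those of Tmem87a, H2-Bl, Tcea3 and Hbb-b2 are open. Probes above background on all 12 arrays made up 85 of the 205. The top of the scale touched 1 probe, the brighter one of Rpl29. On unlogged signals 204 of the 205 interactions had the same sign and that of Gldc had the opposite one.

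The 1st group of named genes was highest in ColXN617K and carried lower interactions. Cxcl1, a chemokine that attracts neutrophils, read 6.29, 6.16 and 6.21 in Wt, 11.19, 11.11 and 10.44 in ColXN617K, 6.48, 8.92 and 6.75 in Xbp1CartΔEx2 and 6.83, 6.72 and 7.33 in C/X. The 3 ColXN617K arrays stood above all others, and Wt and C/X were never above background. The mutation raised Cxcl1 at least 9.63-fold with XBP1 (adjusted p = 4.11e-05), and C/X lay at least 12.3-fold below ColXN617K (adjusted p = 0.000505). Its interaction was -5.11 ± 0.71 (SE, adjusted p = 0.00252), -5.42 with the Xist block, and it was called in 12 of the 12 fits that left out an array.

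Mak16, a nucleolar factor of large ribosomal subunit assembly known from yeast, had the same shape. It read 6.74, 6.49 and 6.76 in Wt, 9.81, 9.88 and 9.04 in ColXN617K, 6.78, 7.49 and 7.79 in Xbp1CartΔEx2 and 6.70, 6.60 and 6.63 in C/X. All 3 ColXN617K arrays exceeded every other array, and Wt and C/X were at the floor. The interaction was -3.62 ± 0.40 (adjusted p = 0.00116) and is a lower limit in size. Other Mak16 probes gave -0.41 ± 0.49 and -0.66 ± 0.27 and were not called. Tmem87a, a Golgi membrane protein, read 10.37, 10.64 and 9.49 in ColXN617K and no more than 7.45 on any other array, with an interaction of -3.54 ± 0.46 (adjusted p = 0.00166). The floor left the size of that value open.

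Nop14, a further nucleolar factor of ribosome assembly, was at the floor in Wt (7.16, 7.07 and 7.09), high in ColXN617K (9.84, 10.07 and 9.23) and between them in C/X (8.50, 8.25 and 7.50). Its interaction of -2.29 ± 0.40 (adjusted p = 0.00783) was called in 1 of the 12 fits without an array. H2-Bl, a class I histocompatibility gene, and Tcea3, a transcription elongation factor, rose at least 2-fold in both settings, by a smaller measured fold without XBP1. H2-Bl read 10.54, 10.52 and 10.74 in ColXN617K and 8.58, 8.85 and 8.58 in C/X, and both other genotypes were at the floor. The mutation raised it at least 7.78-fold with XBP1 and at least 2.64-fold without, and the interaction was -1.93 ± 0.25 (adjusted p = 0.00166). Since a floor under both controls can hide a difference between them, the size is open. Tcea3 rose at least 3.70-fold and at least 2.15-fold, with an interaction of -1.37 ± 0.26 (adjusted p = 0.00999), called in 1 of 12 fits. Both of its controls were at the floor, so this size is open as well. Beside these ColXN617K-high genes, the summed unlogged signal of 10 skeletal muscle markers was 4430 to 20300 in ColXN617K, 2740 to 3790 in Wt, 2110 to 3230 in Xbp1CartΔEx2 and 2250 to 9660 in C/X, and 8 of the 10 were never above background in Wt. The part of muscle in these interactions was not tested.

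The promoter of Cxcl1 is printed because it combines a high rank in the interaction with 2 motifs. The bases are the 250 before the start of the gene, taken from RefSeq on GRCm38.p6, at chr5:90890995-90891244 on the plus strand. Capitals mark GACGTG (written on this strand as its reverse complement) and, further on, overlapping matches of the NF-κB element.
Cxcl1 promoter: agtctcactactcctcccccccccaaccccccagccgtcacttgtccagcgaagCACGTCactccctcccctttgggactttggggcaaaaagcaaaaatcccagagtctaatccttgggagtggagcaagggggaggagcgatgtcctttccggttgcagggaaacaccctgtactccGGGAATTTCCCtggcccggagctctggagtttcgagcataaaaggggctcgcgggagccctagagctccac
The promoters of 3 further genes with lower interactions held an ACGT core. Snx13 (chr12:35046939-35047188, plus strand) and Spred1 (chr2:117120821-117121070, plus strand) held GACGTG, and Ncstn (chr1:172082750-172082999, minus strand), which encodes a subunit of gamma-secretase and was picked after its promoter was seen, held the longer XBP1 element TGACGTGG. Ncstn read 9.44 in Wt, 9.53 in ColXN617K, 10.08 in Xbp1CartΔEx2 and 8.50 in C/X on average, with an interaction of -1.68 ± 0.24 (adjusted p = 0.00277). Capitals again mark the match, on either strand.
Snx13 promoter: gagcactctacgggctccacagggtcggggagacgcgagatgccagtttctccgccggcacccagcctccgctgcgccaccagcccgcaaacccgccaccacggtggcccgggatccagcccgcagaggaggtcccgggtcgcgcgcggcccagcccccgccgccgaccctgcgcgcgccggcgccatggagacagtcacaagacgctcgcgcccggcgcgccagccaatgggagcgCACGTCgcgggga
Spred1 promoter: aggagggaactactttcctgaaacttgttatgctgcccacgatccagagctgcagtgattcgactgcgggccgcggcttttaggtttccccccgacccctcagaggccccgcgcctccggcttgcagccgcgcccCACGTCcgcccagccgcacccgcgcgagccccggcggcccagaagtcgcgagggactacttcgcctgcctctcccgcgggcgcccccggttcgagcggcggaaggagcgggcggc
Ncstn promoter: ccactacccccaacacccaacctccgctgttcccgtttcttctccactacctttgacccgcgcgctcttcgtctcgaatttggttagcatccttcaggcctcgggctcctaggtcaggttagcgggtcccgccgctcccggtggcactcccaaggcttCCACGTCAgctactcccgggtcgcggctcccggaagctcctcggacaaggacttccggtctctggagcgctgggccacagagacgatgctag
Over the 6217 tested genes with a promoter in the RefSeq table, 9.52% held GACGTG on either strand and 0.853% held TGACGTGG, which contains it. Of the genes with lower interactions 55 of 73 were matched, and 10 held GACGTG (18.2%) and 1 TGACGTGG. Of those with higher interactions 73 of 84 were matched, and 6 held GACGTG (8.22%) and 0 TGACGTGG. Among 30 matched genes with lower interactions that rose 2-fold only with XBP1, or more with it, 6 held GACGTG (20%). The NF-κB element was in 0.306% of tested promoters and, among the called genes, in that of Cxcl1 alone. The ER stress elements I and II were in none of the matched called promoters. A match describes these letters in this window and no more.

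The 2nd group moved in opposite directions or started from a raised signal in Xbp1CartΔEx2. Anxa4, a calcium-dependent phospholipid-binding protein, had the lowest interaction of all tested probes. It read 8.61, 6.56 and 6.41 in Wt, 9.44, 9.59 and 10.77 in ColXN617K, 9.94, 9.75 and 10.36 in Xbp1CartΔEx2 and 6.81, 6.74 and 6.29 in C/X. Both single mutants lay above every Wt and C/X array, and C/X was at the floor. The mutation raised the signal by 2.74 with XBP1 (adjusted p = 0.00187) and lowered it at least 6.60-fold without (adjusted p = 0.000482), which gave an interaction of -6.14 ± 0.73 (adjusted p = 0.00142), -6.65 with the Xist block and called in 12 of 12 fits. A second Anxa4 probe had an interaction of -0.66 ± 0.38 (adjusted p = 0.316) and was not called.

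Tmem68, a membrane protein, was also higher in both single mutants than in Wt and C/X. It read 7.04, 6.39 and 8.14 in Wt, 9.76, 9.77 and 9.64 in ColXN617K, 8.95, 9.03 and 9.03 in Xbp1CartΔEx2 and between 7.35 and 8.05 in C/X. Neither single mutant overlapped Wt or C/X, and the interaction was -3.74 ± 0.50 (adjusted p = 0.00207, called in 12 of 12 fits). Snx13, a sorting nexin of endosomes, had an interaction of -2.99 ± 0.50 (adjusted p = 0.0061), with C/X at 7.76, 7.67 and 6.67 and Xbp1CartΔEx2 at 8.97, 9.13 and 8.92, and was called in 2 of 12 fits.

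Aldh1l2, the mitochondrial enzyme that oxidises formyl-tetrahydrofolate, read 6.58, 6.76 and 6.43 in Wt, 11.71, 11.82 and 10.13 in ColXN617K, 8.80, 9.51 and 9.08 in Xbp1CartΔEx2 and 10.58, 10.99 and 9.61 in C/X. Wt was at the floor, and both collagen X mutants lay above Xbp1CartΔEx2. The mutation raised it at least 11.9-fold with XBP1 (adjusted p = 1.9e-05), and its effect without XBP1 was 1.26 (adjusted p = 0.0508). Loss of XBP1 alone raised it at least 2.80-fold (adjusted p = 0.00626). The interaction was -3.36 ± 0.62 (adjusted p = 0.00935), was called in 1 of 12 fits, and 2 other Aldh1l2 probes gave -0.99 ± 0.43 and 0.82 ± 0.99. Mcm6, a subunit of the replicative helicase, was low in Wt alone (7.13, 6.92 and 6.98, at the floor) and read 8.37 or more on the 9 other arrays, with an interaction of -2.04 ± 0.30 (adjusted p = 0.00315). Other Mcm6 probes gave 1.32 ± 0.30 (adjusted p = 0.0229 by limma), opposite in sign, and -0.11 ± 0.36.

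The 3rd group was high in Xbp1CartΔEx2 alone. Pdpn, a mucin-like glycoprotein of lymphatic vessels and osteocytes, read 6.14, 7.40 and 7.82 in Wt, 8.92, 8.13 and 7.44 in ColXN617K, 9.75, 11.53 and 10.89 in Xbp1CartΔEx2 and 7.59, 7.54 and 7.49 in C/X. Only the Xbp1CartΔEx2 arrays did not overlap the others. The mutation lowered it by 3.18 on the log2 scale without XBP1 (log2 value -3.18, adjusted p = 0.000665), and the interaction of -4.23 ± 0.72 (adjusted p = 0.00648) was called in 3 of 12 fits.

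Spred1, an inhibitor of Ras signalling, read 8.81, 9.15 and 8.89 in Xbp1CartΔEx2 and was at the floor in Wt and C/X. The mutation lowered it at least 3.15-fold without XBP1 (adjusted p = 1.68e-05), and the interaction was -2.90 ± 0.36 (adjusted p = 0.00143), called in 12 of 12 fits. Glrx, a glutaredoxin, read 9.53, 10.02 and 10.00 in Xbp1CartΔEx2 and no more than 7.61 elsewhere, with an interaction of -2.85 ± 0.52 (adjusted p = 0.00935). Tagln2, an actin-binding protein, was well above background everywhere, highest in Xbp1CartΔEx2 (10.59, 11.46 and 11.03) and lowest in C/X (8.89, 9.09 and 8.82), with an interaction of -1.94 ± 0.35 (adjusted p = 0.00888). Glrx was called in 1 and Tagln2 in 2 of the 12 fits.

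Markers of other tissues also differed between the genotypes. The summed unlogged signal of 10 bone and perichondrial markers was 19300 to 39200 in Xbp1CartΔEx2 against 10900 to 16400 in Wt, 13300 to 14300 in ColXN617K and 13200 to 13800 in C/X. That of 15 endothelial markers was 27200 to 46400 in Xbp1CartΔEx2, 12600 to 29000 in Wt, 2080 to 2360 in ColXN617K and 2160 to 6220 in C/X. The mutation lowered 13 of the 15 endothelial markers with XBP1, beside 7.58% of all genes. Without XBP1 it lowered 14 and raised 1, beside 8.53 and 6.01%. Cdh5 and Ramp2 were never above background in either collagen X mutant. Vwf went the other way, above background only on arrays of ColXN617K and C/X. Pecam1 was above background on arrays of Xbp1CartΔEx2 alone. No bone or endothelial marker passed the interaction test, and the medians were -1.02 over the 10 and -0.34 over the 15. The largest were Bglap2 (osteocalcin), at -3.31 ± 0.80 (adjusted p = 0.0285), and Col1a2, at -3.17 ± 0.82 (adjusted p = 0.0367). The part of these tissues in the interactions of Pdpn, Spred1, Glrx and Tagln2 was not tested.

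Lamc1 and Gldc fell in both settings and more without XBP1. Lamc1, the gamma 1 chain of laminin, read 10.69, 10.73 and 10.77 in Wt, 9.32, 9.50 and 9.75 in ColXN617K, 11.66, 12.31 and 12.01 in Xbp1CartΔEx2 and 8.40, 8.55 and 8.49 in C/X. The 4 genotypes did not overlap on any array. The mutation changed it by -1.20 with XBP1 (adjusted p = 0.000892) and -3.52 without (adjusted p = 3.44e-07), an interaction of -2.31 ± 0.29 (adjusted p = 0.00153), -2.25 with the Xist block and called in 12 of 12 fits. Gldc, the decarboxylase of the glycine cleavage system, went from 12.62, 12.59 and 12.60 in Wt to 10.06, 9.83 and 10.09 in ColXN617K, and from 12.38, 12.08 and 12.54 in Xbp1CartΔEx2 to 8.48, 7.90 and 7.76 in C/X. Its interaction of -1.67 ± 0.31 (adjusted p = 0.00935) was called in 2 of 12 fits and holds for folds only, since in unlogged signal the fall without XBP1 was the smaller one. A second Gldc probe gave 0.69 ± 0.46, opposite in sign, and was not called.

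Of the 115 probes with higher interactions, ColXN617K lay farthest from the other genotypes in 67, and genes with a dip in ColXN617K come first. Msi2, an RNA-binding protein of the Musashi family, read 11.38, 10.61 and 11.24 in Wt, 8.18, 7.57 and 6.98 in ColXN617K, 11.21, 10.70 and 11.30 in Xbp1CartΔEx2 and 11.04, 10.41 and 10.96 in C/X. The ColXN617K arrays lay far below 3 genotypes that overlapped each other. The mutation changed Msi2 by -3.50 with XBP1 (adjusted p = 1.69e-05) and -0.27 without (adjusted p = 0.615), and the interaction of 3.22 ± 0.46 (adjusted p = 0.00276) was 2.37 with the Xist block and called in 9 of 12 fits. The 2 other Msi2 probes gave 1.06 and 2.35 and were not called.

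Rpl29, a protein of the large ribosomal subunit, was called by 2 probes. The dimmer read 9.33, 9.51 and 9.88 in Wt, 6.98, 6.97 and 7.55 in ColXN617K, 9.50, 8.94 and 9.14 in Xbp1CartΔEx2 and 9.84, 9.71 and 10.16 in C/X. Again only ColXN617K stood apart, and the interaction was 3.12 ± 0.34 (adjusted p = 0.00116, called in 12 of 12 fits). The brighter probe was near the top of the scale in Xbp1CartΔEx2 and C/X and gave 1.65 ± 0.27 (adjusted p = 0.00542), called in 3 of 12 fits.

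Chmp2a, a subunit of the ESCRT-III membrane-cutting complex, was at the floor in ColXN617K (6.47, 6.67 and 6.23) and read 8.23, 8.13 and 8.46 in C/X, with an interaction of 3.17 ± 0.49 (adjusted p = 0.00411). Bola3, a mitochondrial protein of iron-sulphur cluster assembly, had an interaction of 3.18 ± 0.49 (adjusted p = 0.00411). Its ColXN617K arrays, at 7.36, 7.91 and 6.19, lay below all others. Atp5l, a subunit of mitochondrial ATP synthase, read 10.42, 10.86 and 10.62 in Wt, 8.83, 8.79 and 9.06 in ColXN617K, 10.61, 9.95 and 10.07 in Xbp1CartΔEx2 and 10.93, 10.95 and 10.89 in C/X, with an interaction of 2.45 ± 0.30 (adjusted p = 0.00143, called in 12 of 12 fits). Chmp2a was called in 3 and Bola3 in 5 of those fits. Neither dipped in ColXN617K alone. Mean signals in Xbp1CartΔEx2 were also below those in Wt, at 7.5 against 8.85 for Chmp2a and 8.06 against 9.23 for Bola3. Other Chmp2a probes gave 0.02 ± 0.28 and 0.89 ± 0.38 and were not called.

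Some genes of the cytoskeleton and of translation were among these dips, and the cytoskeleton list as a whole did not follow them. Of 30 measured cytoskeleton genes, 3 had a higher and 1 (Tagln2) a lower called interaction by the brightest probe, beside 0.694 and 0.785% of all genes, and their median was 0.03 beside 0.01 over all 7642 genes. A dimmer probe of Actn4, an actin cross-linker, was called at 1.37 ± 0.26 (adjusted p = 0.00995), and its brightest gave 1.23. Capzb, which caps actin filaments, fell to 8.55, 8.37 and 8.90 in ColXN617K from 10.07, 10.23 and 10.04 in Wt and read 9.96, 9.95 and 9.63 in C/X, with an interaction of 2.00 ± 0.29 (adjusted p = 0.00318). Msn, the membrane linker moesin, gave 1.89 ± 0.32 (adjusted p = 0.00632), and Myl6, a myosin light chain among the brightest probes, gave 1.60 ± 0.26 (adjusted p = 0.00519). These 3 were called in 4, 2 and 1 of the 12 fits. Other Capzb probes gave 1.16 ± 0.56 and -0.83 ± 0.39, and another Myl6 probe gave 0.30 ± 0.34, none of them called.

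Of 51 cytosolic ribosomal protein genes, 4 had a higher and 0 a lower called interaction, and 40 lay above 0 (78.4%), with a median of 0.26. Over all genes 0.694% were called higher and 50.5% lay above 0. Besides Rpl29 they were Rps4l at 2.64 ± 0.47 (adjusted p = 0.00822), Rps6 at 1.58 ± 0.25 (adjusted p = 0.00457) and Rps7 at 1.54 ± 0.27 (adjusted p = 0.00795). They did not share a pattern: Rps4l dipped in ColXN617K (7.55, 7.35 and 8.26), while Rps6 (11.14, 11.13 and 11.35) and Rps7 (11.11, 11.44 and 11.24) were highest in C/X. Ribosomal protein genes have many processed copies, so cross-hybridisation leaves single probes uncertain. Of 66 mitochondrial ribosomal protein genes Mrpl53 alone was called by its brightest probe, at 1.78 ± 0.27 (adjusted p = 0.00411), and the median was 0.19. A dimmer probe of Mrpl43 was called at 1.69 ± 0.30 (adjusted p = 0.00822, called in 1 of 12 fits), and its brightest gave 0.54. Of 62 respiratory chain genes Atp5l alone was called by its brightest probe, and the median was 0.24. With arrays scaled by their medians the median of all genes was -0.76, and the ribosomal median turned to -0.55, which was 0.21 above that of all genes.

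Other genes were highest in C/X. Fn1, which encodes the matrix protein fibronectin, read 7.42, 8.05 and 7.55 in Wt, 6.89, 7.13 and 7.03 in ColXN617K, 7.92, 8.11 and 7.37 in Xbp1CartΔEx2 and 10.72, 10.93 and 10.31 in C/X. No array of another genotype came near those of C/X. The mutation raised Fn1 by 2.85 without XBP1 (adjusted p = 1.35e-05), while its effect with XBP1 was -0.66 (adjusted p = 0.0695). The interaction was 3.50 ± 0.36 (adjusted p = 0.000871), 4.16 with the Xist block and called in 12 of 12 fits, and a second Fn1 probe was called at 2.48 (adjusted p = 0.00267).

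Capns1, the small subunit of calpain proteases, read 10.80, 10.49 and 10.56 in C/X and 9.34 or less on the 9 other arrays. Its interaction was 3.68 ± 0.66 (adjusted p = 0.00885), called in 2 of 12 fits, and the Xbp1CartΔEx2 arrays were spread widely, at 8.91, 7.89 and 6.64. Cavin3, a coat protein of caveolae, read 10.61, 10.33 and 11.32 in C/X, 10.17, 9.82 and 9.78 in Wt and less in the single mutants, with an interaction of 3.69 ± 0.62 (adjusted p = 0.00613, called in 1 of 12 fits). Eif5a, a translation factor, read 9.27, 9.40 and 10.35 in C/X and was at the floor in ColXN617K, with an interaction of 3.35 ± 0.50 (adjusted p = 0.00374, called in 9 of 12 fits), though a second Eif5a probe gave -0.02.

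Cd3eap, a subunit of RNA polymerase I, had the largest called value above 0 of a probe with 1 gene symbol. It read 9.06, 8.87 and 8.93 in Wt, 8.33, 8.35 and 9.53 in ColXN617K, 6.22, 6.22 and 6.18 in Xbp1CartΔEx2 and 10.15, 10.07 and 10.00 in C/X. It was at the floor in Xbp1CartΔEx2 alone and highest in C/X. Loss of XBP1 lowered it at least 3.21-fold with normal collagen X (adjusted p = 0.000244), and the mutation raised it at least 6.97-fold without XBP1 (adjusted p = 2.44e-06). The interaction of 4.08 ± 0.39 (adjusted p = 0.000555), a lower limit in size, was 4.00 with the Xist block and was called in 12 of 12 fits. A second Cd3eap probe gave 0.48 ± 0.34 and was not called.

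Hbb-b2, an adult beta globin, was above background in Wt alone, at 9.78, 9.11 and 10.45, so the size of its interaction of 3.58 ± 0.42 (adjusted p = 0.00142) is open. The summed signal of 5 erythroid markers was 17500 to 28500 in Wt, 7170 to 10000 in Xbp1CartΔEx2, 3330 to 9480 in ColXN617K and 3160 to 4920 in C/X. Besides Hbb-b2, Alas2 was at the floor in both collagen X mutants and Slc4a1 in C/X. The part of red blood cells in this call was not tested. Among probes moved 2-fold in neither setting, AU022252 gave 1.79 ± 0.31 (adjusted p = 0.00693), Clptm1 1.72 ± 0.32 (adjusted p = 0.00935) and Rps19bp1 1.69 ± 0.31 (adjusted p = 0.00966).

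**Figure D4:**
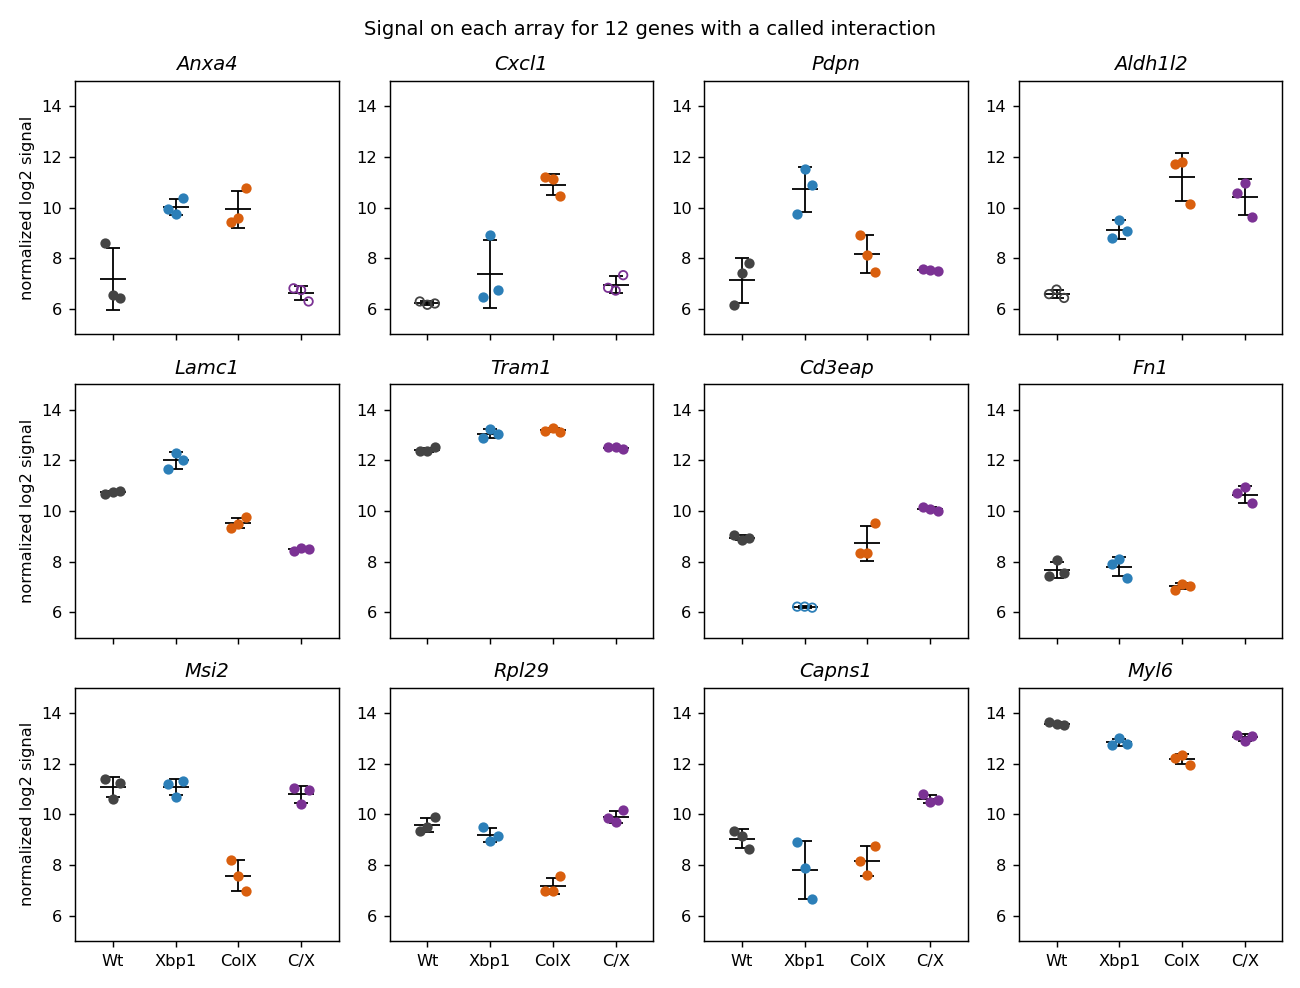
Normalized log2 signal (vertical axis) on each of 3 arrays per genotype (horizontal axis: Wt, Xbp1CartΔEx2 as Xbp1, ColXN617K as ColX, and C/X) for 12 genes, with mean and SD in black. Open points are genotypes above background on 0 of 3 arrays, as Cxcl1 in Wt and C/X and Cd3eap in Xbp1CartΔEx2; Fn1 is high in C/X alone.

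The genes of the unfolded protein response were counted by list. With 1.48% of all genes called, lists this short cannot show a lack of calls. Of 26 measured XBP1 target genes, 0 had a higher and 1 a lower called interaction beside 1.48% of all genes called in either direction, and 17 lay below 0, as did 49.5% of all genes, with a median of -0.20. The mutation raised 5 of the 26 with XBP1 and 5 without, with medians of 0.77 and 0.51, where it raised 7.45% of all genes with XBP1 and 6.01% without. The called member was Tram1, which helps nascent chains cross the ER membrane. Its brighter called probe read 12.38, 12.35 and 12.51 in Wt, 13.17, 13.27 and 13.14 in ColXN617K, 12.88, 13.24 and 13.06 in Xbp1CartΔEx2 and 12.53, 12.51 and 12.43 in C/X. Both single mutants lay above Wt and C/X, with small changes. The interaction was -1.35 ± 0.24 (adjusted p = 0.00825), called in 1 of 12 fits. The 2 other probes gave -1.67 (adjusted p = 0.00888) and -0.05 ± 0.28.

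Dnajb9, an ER co-chaperone and a standard XBP1 target, read 9.22, 9.88 and 9.12 in Wt, 11.27, 11.56 and 10.77 in ColXN617K, 9.03, 8.68 and 8.90 in Xbp1CartΔEx2 and 9.51, 9.53 and 8.85 in C/X. Only the ColXN617K arrays were separate from the rest. The mutation raised it by 1.79 with XBP1 (adjusted p = 0.000563), its effect without XBP1 was 0.42 (adjusted p = 0.312), and the interaction of -1.37 ± 0.40 (adjusted p = 0.0567) missed the threshold.

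Of 26 ER chaperones and folding enzymes none was called, and the median was -0.28. The mutation raised 7 of them with XBP1, and raised 7 and lowered 2 without it. Of all genes it raised 7.45% with XBP1, and raised 6.01% and lowered 8.53% without it. Fkbp11, a prolyl isomerase of the ER, came close, with 12.53, 12.72 and 12.26 in ColXN617K, 10.87, 10.53 and 10.47 in C/X and an interaction of -1.78 ± 0.34 (adjusted p = 0.0103). Serpinh1, the collagen chaperone HSP47, gave -1.40 ± 0.29 (adjusted p = 0.0155). Of 9 ATF6 target genes none was called, with a median of 0.19. The mutation raised 6 of the 9 both with and without XBP1, beside 7.45 and 6.01% of all genes, with medians of 1.61 and 1.55. Of 18 genes of ER-associated degradation none was called, with a median of 0.12.

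Of 18 PERK branch regulators none was called by its brightest probe, 12 lay above 0 (66.7%, against 50.5% of all genes) and the median was 0.33. The mutation raised 11 of them with XBP1 and 14 without, where it raised 7.45 and 6.01% of all genes, with a median of 1.5 in both. A dimmer probe of Trib3, a pseudokinase induced by ATF4 and CHOP, was called at 2.19 ± 0.32 (adjusted p = 0.00331, called in 8 of 12 fits), while its brightest probe gave 1.18 (adjusted p = 0.0634) and the remaining one 2.33 (adjusted p = 0.0339). Ddit3, the stress factor CHOP, read 11.02, 10.96 and 10.42 in Wt, 13.26, 12.85 and 13.43 in ColXN617K, 10.15, 9.28 and 9.45 in Xbp1CartΔEx2 and 13.38, 13.28 and 13.44 in C/X. Both collagen X mutants overlapped each other, and Xbp1CartΔEx2 was the lowest genotype. The interaction was 1.36 ± 0.37 (adjusted p = 0.0453). Ppp1r15a, which restores translation after PERK signalling, had the same order and an interaction of 1.36 ± 0.34 (adjusted p = 0.0324). Fgf21, a secreted hormone induced by stress, was raised at least 62.9-fold with XBP1, since Wt was at the floor, and by 5.97 on the log2 scale without it. Its interaction of -0.45 ± 0.26 (adjusted p = 0.317) is a lower limit in size, so its size is not settled. Atf4 gave -0.07 ± 0.32.

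Over all genes 1.48% were called, so a single call or none does not set apart the lists that follow or the other short ones. Of 12 genes of amino acid synthesis and transport Aldh1l2 alone was called, and the median was 0.03. Of 10 acute-phase and chemokine genes Cxcl1 alone was called, and the median was 0.20. Of 29 nucleolar genes Nop14 alone was called (median 0.09), and of 20 cell cycle genes Mcm6 alone (median -0.18). By the brightest probe, none was called among 15 aminoacyl-tRNA synthetases (median -0.04), 6 candidate substrates of IRE1-dependent mRNA decay (-0.12), 25 proteasome subunits (0.04), 12 sterol and fatty acid synthesis genes (0.42), 9 NRF2 and glutathione genes (-0.02), 21 cartilage matrix genes (-0.13) or 11 osteoclast and macrophage markers (0.05). Of the 10 skeletal muscle markers none was called (median -0.96), of which Acta1 gave -4.36 ± 1.19 (adjusted p = 0.0449) and varied from 8.93 to 11.69 within ColXN617K.

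Sparc, which encodes the matrix protein osteonectin and is on the list of IRE1-dependent decay, was called by a dimmer probe. It read 11.78, 11.77 and 11.78 in Wt, 8.21, 8.21 and 8.03 in ColXN617K, 12.48, 12.90 and 12.13 in Xbp1CartΔEx2 and 11.78, 11.21 and 11.92 in C/X. The ColXN617K arrays alone were low. The interaction was 2.76 ± 0.34 (adjusted p = 0.00143, called in 12 of 12 fits), while the other Sparc probes gave 0.09 and 0.26. The dimmer called probes of Sparc, Trib3, Mrpl43 and Actn4 are named after their values were seen.

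**Figure D5:**
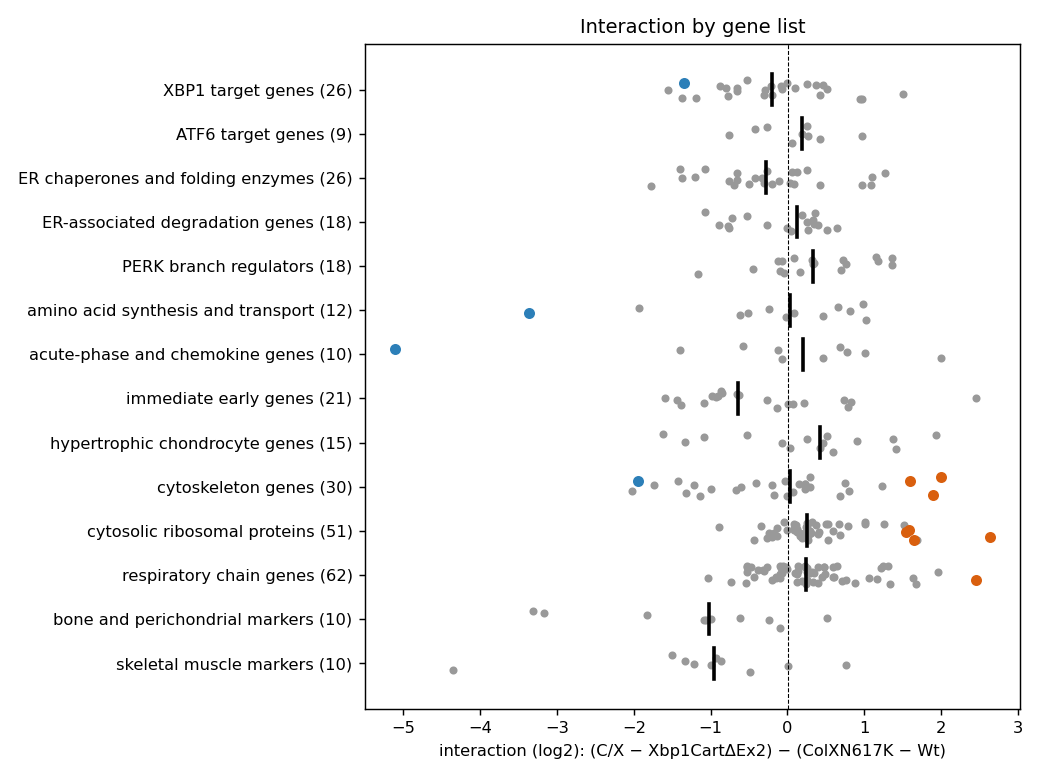
Interaction on the log2 scale (horizontal axis) of each measured gene in 14 lists (vertical axis, number of genes in parentheses), by its brightest probe. Black bars are list medians, the dashed line is the median of all genes (0.01), and called genes are orange (higher) or blue (lower), as the 4 ribosomal protein genes to the right.

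Of 15 hypertrophic chondrocyte genes none was called, and the median was 0.43. The mutation lowered 8 of them with XBP1, beside 7.58% of all genes, and 8 without it, beside 8.53%. Alpl, the alkaline phosphatase of mineralising cartilage, read 13.19, 13.49 and 13.08 in Wt, 11.11, 11.09 and 11.51 in ColXN617K, 13.41, 13.22 and 13.41 in Xbp1CartΔEx2 and 12.63, 12.64 and 12.87 in C/X. C/X lay between ColXN617K and the other 2 genotypes without overlap. The interaction was 1.38 ± 0.28 (adjusted p = 0.0128). Bmp8a, a bone morphogenetic protein, gave 1.93 ± 0.45 (adjusted p = 0.0248), and Cdkn1c, a cyclin-dependent kinase inhibitor, gave -1.09 ± 0.25 (adjusted p = 0.0248) at the top of the scale, where 3 genotypes read 14.37 to 14.61.

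Col10a1 itself read 11.75, 12.47 and 11.97 in Wt, 8.43, 8.48 and 9.78 in ColXN617K, 12.18, 11.16 and 11.70 in Xbp1CartΔEx2 and 9.27, 9.33 and 8.35 in C/X. The mutants overlapped each other, and the interaction was 0.47 ± 0.57 (adjusted p = 0.644). Xbp1 read 10.49, 11.03 and 10.67 in Wt, 11.68, 11.87 and 11.25 in ColXN617K, 10.94, 10.82 and 10.96 in Xbp1CartΔEx2 and 10.94, 11.18 and 10.19 in C/X, with an interaction of -1.01 ± 0.38 (adjusted p = 0.129). Where this probe lies relative to the deleted exon is not known, so it does not check the deletion. Of 22 measured genes on a list drawn from those named in the study, most of them for differentiation and stress, none was called by its brightest probe, and the median was -0.06. The study chose these genes on the same samples, and Aldh1l2, which it also names, was counted in another list.

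Of 21 immediate early genes none was called by its brightest probe, 14 lay below 0 (66.7%, against 49.5% of all genes) and the median was -0.64. The largest value went the other way: Junb, a subunit of AP-1, read 11.01, 11.14 and 10.57 in Wt, 7.74, 7.64 and 9.10 in ColXN617K, 11.34, 10.58 and 10.97 in Xbp1CartΔEx2 and 10.48, 10.65 and 10.87 in C/X. ColXN617K alone was low. Its interaction was 2.45 ± 0.50 (adjusted p = 0.0145), while Egr2 gave -1.38 ± 0.28 (adjusted p = 0.0127), with a size the floor does not settle, and Jun -1.44 ± 0.37 (adjusted p = 0.0366).

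Most other probes of the same genes were not called. Of the 157 genes with a called probe, 65 had another tested probe, 88 probes in all. Of these 66 had the sign of the called probe and 4 were called, where 1.71% of all tested probes were called in either direction. Beside called probes with higher interactions, 46 of 53 other probes lay above 0, with a median of 0.43. Beside those with lower interactions, 20 of 35 lay below 0, with a median of -0.17. Of all tested probes 50.8% lay above 0 and 49.2% below. For named genes whose other probe is not given above, it gave -1.1 for Tmem87a, -0.58 for Snx13, -0.97 for Glrx and -2.05 for Ncstn. It gave 0.72 for Cavin3 and 1.9 for AU022252, and none of these was called. Each value above therefore belongs to its probe, and whether the gene's other transcripts follow was not tested.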

How the data were processed

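The deposited table gave an intensity and a detection score (1 minus the detection p-value, per the file headers) for each probe and array, and a table of log2 values that the authors had normalized with limma's neqc. Intensities were normalized here in the same way with limma 3.58.1 in R 4.3.3 (normexp from detection p, quantile, offset 16), and differed from the authors' log2 values by at most 0.0339. Probes with a score over 0.95 on at least 3 of 12 arrays were kept (12023). All arrays were fitted with 1 mean per genotype (lmFit, eBayes) and p-values were Benjamini-Hochberg adjusted over all tested probes. No count or depth exists for arrays, and 3 mice per genotype limit the precision. The 2 Xist settings were chosen after seeing the data. The scripts were tested on simulated data.

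A fold against a genotype never above background was taken against the higher of the array floor and the probe's signal. Named genes were the 10 largest called interactions per direction, the 3 largest per pattern, called members of 28 gene lists (or up to 3 with the smallest p, as values), a list of genes named in the study, Xbp1, Col10a1 and Xist. The members and lists were chosen with earlier results of these data known. The ribosomal list was narrowed after the files were seen, because its search pattern took in Rps19bp1 and S6 kinases. Lists used each gene's brightest tested probe. Sequences are from RefSeq on GRCm38.p6. Alternatives covered background correction, offset, normalization, filter, weights, moderation, replicate blocks, thresholds and arrays left out. No chip is named in the sources used here, so no chip block was run.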

Additional observations from a re-analysis of the deposited data

Results flagged for a closer look

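In the 40 named probes with a called interaction, the effect of the collagen X mutation differed between mice with and without XBP1 by a direct test, and all are listed here with the interaction on the log2 scale. The 22 higher ones were Cd3eap 4.08, Cavin3 3.69, Capns1 3.68, Hbb-b2 3.58, Fn1 3.50, Eif5a 3.35, Msi2 3.22, Bola3 3.18, Chmp2a 3.17, Rpl29 3.12, Rps4l 2.64, Atp5l 2.45, Capzb 2.00, Msn 1.89, AU022252 1.79, Mrpl53 1.78, Clptm1 1.72, Rps19bp1 1.69, Rpl29 1.65, Myl6 1.60, Rps6 1.58 and Rps7 1.54. The 18 lower ones were Anxa4 -6.14, Cxcl1 -5.11, Pdpn -4.23, Tmem68 -3.74, Mak16 -3.62, Tmem87a -3.54, Aldh1l2 -3.36, Snx13 -2.99, Spred1 -2.90, Glrx -2.85, Lamc1 -2.31, Nop14 -2.29, Mcm6 -2.04, Tagln2 -1.94, H2-Bl -1.93, Gldc -1.67, Tcea3 -1.37 and Tram1 -1.35. In 3 mice per genotype all 40 kept their sign and an unadjusted p under 0.05 with Xist as a block, and none passed the adjusted threshold there. The 40 were picked on arrays that this fit reuses, which favours kept signs and low p-values, so this is no independent check. With that block the size of the interaction rested on Wt array 2 and C/X array 2 for these genotypes. No explanation of these differences was tested.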

How the results depend on the processing

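Under each of 17 settings that changed the processing, the model, the threshold or the arrays used together, and under the 12 fits without a single array, every called probe that was tested kept its sign, apart from the sign of Gldc on unlogged signals (264, against a log2 interaction of -1.67). Settings that changed only the threshold reused the same fit, so no sign could change. The others reused arrays on which the probes were picked for large interactions, so the kept signs are no independent check. The number of calls was less stable, and unless stated the cause was not tested. In the order higher and lower interactions, then the mutation with XBP1, the mutation without XBP1, XBP1 loss without the mutation and XBP1 loss with it, the counts were 115, 90, 1740, 1643, 212 and 633. With arrays scaled by their medians, which shifted the median probe by -0.73, they were 0, 1, 796, 401, 8 and 17, with 2391 interactions at an unadjusted p under 0.05. Array weights gave 901, 1157, 3557, 2490, 849 and 1439. Without the 4 arrays with Xist they were 0, 1, 149, 264, 1 and 1, with fewer samples. With Xist as a block they were 0 and 0 for the interaction, 919 for the mutation with XBP1, and 49 and 128 for XBP1 loss. Without both arrays numbered 3 of the collagen X mutants the interaction had 465 and 514 calls, the mutation with XBP1 3343, and XBP1 loss 682 and 1020. An adjusted p of 0.05 gave 429 and 450 interactions, and 606 and 1146 for XBP1 loss. No filter on detection gave 72 and 51, and 109 and 383. No background correction moved the simple effects to 859, 841, 126 and 281, and left 134 and 81 interactions. Array weights, the lower threshold and leaving out ColXN617K array 3 moved the share of higher calls from 56.1 to 43.8, 48.8 and 47.3%.

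Without single arrays the counts ranged from 29 to 388 and from 24 to 432 for the interaction, from 1224 to 2840 and from 1048 to 1988 for the mutation with and without XBP1, and from 57 to 480 and from 235 to 1189 for XBP1 loss without and with the mutation, and all 6 highest counts came without ColXN617K array 3. Over the 4 genotypes the replicate numbers did not pair the samples: same-numbered arrays correlated in their deviations at -0.327 to 0.659 (median 0.049 over 18 pairs). Between ColXN617K and C/X alone, same-numbered arrays correlated at 0.366, 0.597 and 0.659, and array 1 of each with array 2 of the other at 0.511 and 0.432. A replicate block by the number in the title gave 101 and 78 interactions and 705 calls for XBP1 loss with the mutation, and by the number in the description 63 and 44, 1065 and 1001 for the mutation and 86 for XBP1 loss without it.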
